A study of Macaca mulatta with 17 samples.

Results

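Expression of 10 members of the Notch pathway was followed in the uterus of fetal rhesus macaques. These were the receptors NOTCH1, NOTCH2, NOTCH3 and NOTCH4, the ligands JAG1, JAG2, DLL1 and DLL4, and the target genes HES1 and HEY1. The members are the probes whose annotation names one of these symbols, and each of the 10 genes had 1 such probe among 20217 probes with 16837 distinct gene names. The word NOTCH2 also stands in the description of a second, much dimmer probe for a gene similar to NOTCH2, and the brighter probe of NOTCH2 itself was used.

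The animals were female fetuses, and each of 17 arrays held RNA from one side of a single uterus, divided lengthwise so that fundus and cervix were both included. The GD100 groups (gestational day 100) had 5 control and 5 BPA-exposed fetuses, whose dams were given vehicle (ethanol) or deuterated bisphenol A (BPA, a plastics monomer with estrogenic activity) in fruit at 400 µg per kg per day from day 50. The GD165 groups (days 165 to 168) had 4 control and 3 BPA-exposed fetuses, dosed in the same way from day 100. GD100 fetuses were delivered by cesarean section and GD165 fetuses vaginally. Uteri of stillborn fetuses are not among these arrays, and every dam was dosed daily. The paper states that fetuses were killed right after delivery and newborns within a day of it. So age, mode of delivery, any time alive after birth and the days of dosing cannot be told apart between GD165 and GD100.

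Notch signaling passes between neighboring cells. A Delta-like or Jagged ligand on one cell binds a Notch receptor on the next, proteases release the intracellular part of the receptor, and this part joins the DNA-binding protein RBPJ and switches on repressors of the HES and HEY families. The pathway is known for cell fate choice in epithelia, for the branching of blood vessels, where DLL4 and JAG1 act, and for the support of vessels by mural cells, where NOTCH3 acts.

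The probes of 4 of the 5 members that rose with age are shown, since the differences described next rest on them, and the probe of HEY1 is not printed. The first 30 of their 60 bases are given 5′ to 3′, in lower case, with nothing marked in capitals.
DLL1: ttacgcataagaagcatgcactgcctgaag
JAG1: ggtataataggctctgcctaacaggcatgg
DLL4: ttttttgtagtttattttggagtctagtat
HES1: atgttcatattggattgcgcctttgtataa
In the annotation of the array, 9 of the 10 member probes are described by a human transcript and 1, for NOTCH3, by a predicted macaque transcript. The files place 8 of the 10 probes on a chromosome, and its number matched that of the gene in the RefSeq annotation of T2T-MMU8v2.0 for 1 of the 8. Only chromosome numbers were compared, and a mismatch was not taken to mean that a probe measures another gene. For this reason no coordinates are given, and exon or UTR positions were not determined here. The full probes for DLL4 and HEY1 have a stop codon in each of the 3 forward frames, and the other 8 members have at least 1 frame without one.

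Levels are log2 of the processed signal after each array was scaled to a common 75th percentile, which lies at 12.62 on this scale. A level describes 1 probe and is compared between arrays only, never between genes. All 10 member probes were well above background on 17 of 17 arrays and saturated on 0. Over the arrays, 83.8 to 89.0% of spots were well above background, with a median signal 17.5 to 24.2 times the local background. Of 13 genes that mark the uterus and its Müllerian origin, 12 were well above background on all 17 arrays, and the exception was PGR, the progesterone receptor, which was well above background on none (0) of the 10 GD100 arrays and on 3 of the 7 GD165 arrays. The arrays lay on 6 slides, and precision is limited by how many arrays each group has.

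With age, the ligand DLL1 and the targets HES1 and HEY1 rose in controls, and the same 3 genes rose in BPA-exposed fetuses together with the ligands JAG1 and DLL4. The rises were between 1.37-fold (HES1, BPA-exposed) and 2.10-fold (DLL1, BPA-exposed). No receptor (0 of 4) passed the test in either comparison, and no member fell. Between BPA-exposed and control fetuses 0 of the 10 members passed at either age. All tests were limma's moderated test over all 20217 probes, and a member passed where its p, adjusted over all probes by the method of Benjamini and Hochberg, was under 0.01.

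**Figure D1:**
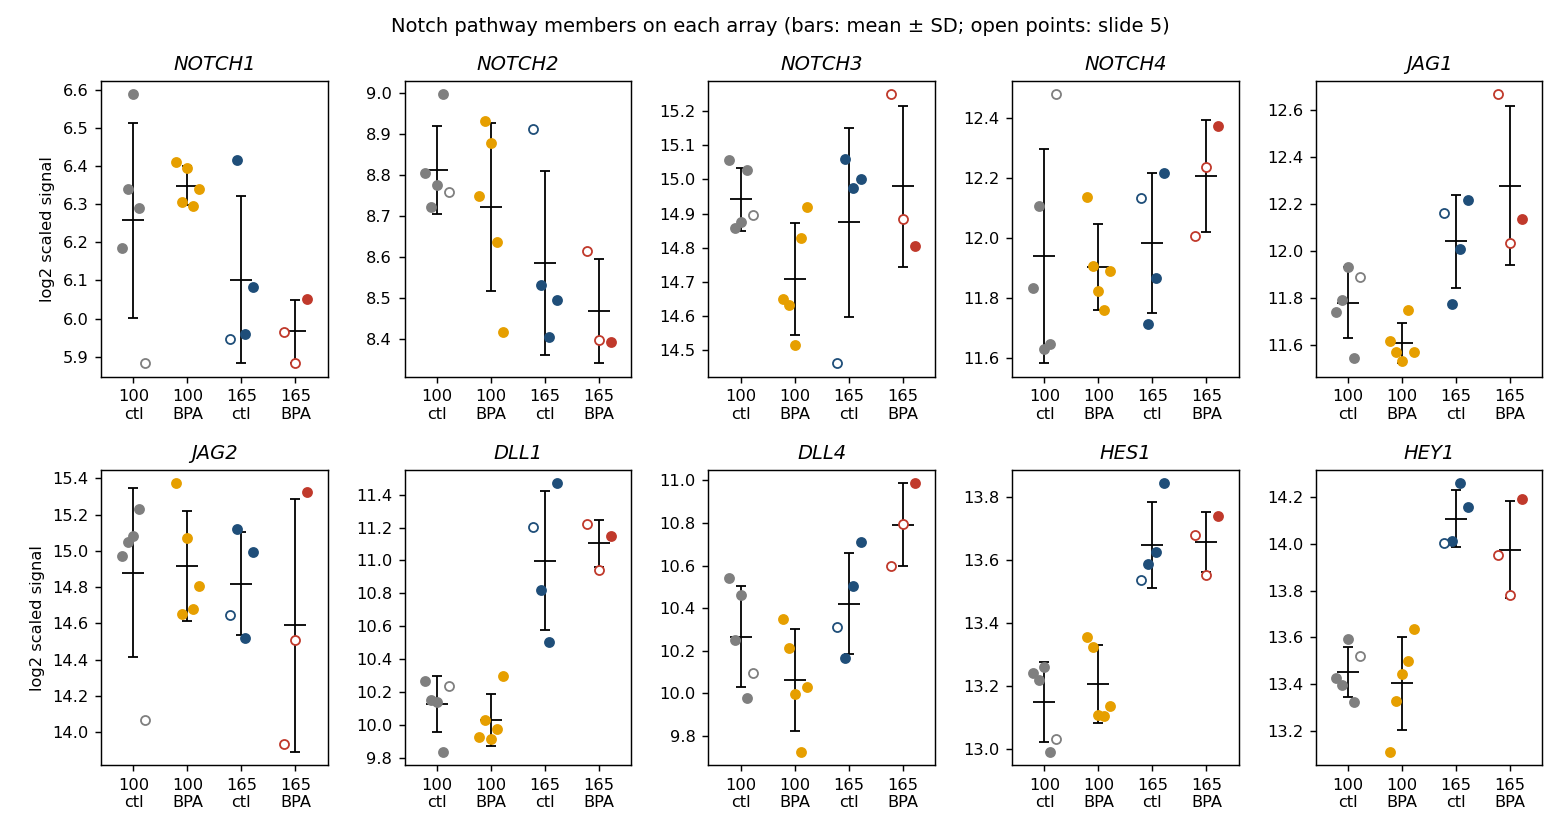
Log2 scaled signal of the 10 Notch pathway members (vertical axes, 1 panel per gene, each with its own range that does not start at 0) on each of 17 arrays in the 4 groups (horizontal axes, gestational day and ctl for control or BPA). Each point is 1 fetus, open points are arrays of slide 5, and bars give the mean ± SD; for DLL1, HES1 and HEY1 every GD165 point lies above every GD100 point.

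The first comparison asked how the members differed between mid and late gestation without exposure, in 4 GD165 and 5 GD100 controls. Of the 10 members, 3 passed the test and all 3 were higher at GD165, where 11.5% of all probes passed, 6.32% as higher and 5.2% as lower. The groups did not overlap for the same 3 members, against 19.4% of all probes. The median log2 fold change was 0.10 over the 10 members and 0.0046 over all probes.

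The same comparison in BPA-exposed fetuses, 3 at GD165 and 5 at GD100, gave 5 members past the test, all higher at GD165. Here 9.68% of all probes passed, 4.82% as higher and 4.86% as lower. For 6 members the groups did not overlap, these 5 and NOTCH1, against 27.2% of all probes. The median log2 fold change was 0.38 over the members and −0.047 over all probes. These 2 comparisons share no animals.

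Among the receptors, NOTCH1 had a level of 6.18, 6.34, 6.59, 6.29 and 5.88 in the GD100 controls and 5.95, 6.42, 5.96 and 6.08 in the GD165 controls. In BPA-exposed fetuses it was 6.41, 6.30, 6.39, 6.29 and 6.34 at GD100 and 5.96, 5.88 and 6.05 at GD165. The ages overlapped in controls and did not in BPA-exposed fetuses, where all 3 GD165 levels were the lower ones. The log2 difference was −0.16 ± 0.12 (SE) in controls (adjusted p = 0.424) and −0.38 ± 0.13 in BPA-exposed fetuses (adjusted p = 0.0563), so NOTCH1 did not pass in either. On slide 5, which held 2 of the 3 BPA-exposed GD165 arrays, NOTCH1 lay between 5.88 and 5.96 on 4 arrays of 3 groups, and on the other 13 arrays between 5.96 and 6.59.

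NOTCH2, a broadly expressed receptor, had mean levels of 8.81 ± 0.11 (SD, n = 5) and 8.59 ± 0.22 (SD, n = 4) in GD100 and GD165 controls, and 8.72 ± 0.20 (n = 5) and 8.47 ± 0.13 (n = 3) in BPA-exposed fetuses. Its log2 age differences were −0.23 ± 0.12 (adjusted p = 0.208) and −0.25 ± 0.13 (adjusted p = 0.182). The levels of the ages overlapped in both. NOTCH3, the receptor of vascular smooth muscle and pericytes, differed by −0.068 ± 0.13 in controls and 0.27 ± 0.14 in BPA-exposed fetuses on the log2 scale (adjusted p = 0.775 and 0.190). One GD165 control stood apart for NOTCH3 at 14.46, while the other 3 lay between 14.97 and 15.06, and without that array the control difference was 0.069 (adjusted p = 0.721). NOTCH4, a receptor known mainly from endothelium, differed by 0.043 ± 0.16 and 0.30 ± 0.18 (adjusted p = 0.896 and 0.249), again with overlap in both.

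DLL1 had the widest age difference of the 10 members in both comparisons. This Delta-like ligand lay at 10.27, 10.16, 10.14, 9.84 and 10.24 in the GD100 controls and at 11.20, 10.82, 10.50 and 11.47 in the GD165 controls. In BPA-exposed fetuses the levels were 9.93, 10.03, 9.92, 9.98 and 10.30 at GD100 and 11.22, 10.94 and 11.15 at GD165. All 7 GD165 levels were above all 10 GD100 levels. For this separation over both exposures, seen also for HES1 and HEY1, the share of all probes is not given here. Within controls and within BPA-exposed fetuses, 19.4% and 27.2% of all probes did not overlap. The rise was 0.87 ± 0.16 on the log2 scale in controls (1.83-fold, 95% interval 0.53 to 1.22, adjusted p = 0.00146) and 1.07 ± 0.18 in BPA-exposed fetuses (2.10-fold, 0.70 to 1.45, adjusted p = 0.000835). Within a slide, 1 array of each age could be set side by side in 3 places, and the GD165 array was higher by 0.68 and 0.96 in controls and by 0.85 in BPA-exposed fetuses.

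JAG1, the Jagged ligand of vessels and epithelia, was at 11.74, 11.79, 11.93, 11.54 and 11.89 in GD100 controls and at 12.16, 11.78, 12.01 and 12.22 in GD165 controls, with overlap. In BPA-exposed fetuses JAG1 was at 11.62, 11.57, 11.53, 11.75 and 11.57 at GD100 and at 12.66, 12.03 and 12.13 at GD165, with no overlap. The log2 difference was 0.26 ± 0.13 in controls (adjusted p = 0.173) and 0.67 ± 0.14 in BPA-exposed fetuses (1.59-fold, adjusted p = 0.00388). Within slides JAG1 was lower by 0.15 on one control pair and higher by 0.27 on the other, and higher by 0.56 on the BPA-exposed pair. The highest of these levels, 12.66, came from GD165 BPA replicate 3, without which the difference was 0.48 and did not pass (adjusted p = 0.0204).

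DLL4, the Delta-like ligand of sprouting endothelium, was at 10.54, 10.25, 10.46, 9.98 and 10.10 in GD100 controls and at 10.31, 10.16, 10.50 and 10.71 in GD165 controls. For BPA-exposed fetuses the DLL4 levels were 10.35, 10.21, 10.00, 9.73 and 10.03 at GD100 and 10.60, 10.79 and 10.99 at GD165. The control ages overlapped over most of their range, whereas the BPA-exposed ages were apart. The log2 difference was 0.16 ± 0.15 in controls (adjusted p = 0.528) and 0.73 ± 0.17 in BPA-exposed fetuses (1.66-fold, adjusted p = 0.00662). Within slides, DLL4 was lower by 0.30 on one control pair and higher by 0.21 on the other, and higher by 0.96 on the BPA-exposed pair.

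JAG2, the second Jagged ligand, spread widely within groups, from 14.07 to 15.23 in GD100 controls and from 13.93 to 15.32 in GD165 BPA-exposed fetuses. Its log2 age differences were −0.061 ± 0.28 and −0.33 ± 0.30 (adjusted p = 0.911 and 0.475). The 4 arrays of slide 5 lay between 13.93 and 14.64 and the 13 others between 14.52 and 15.37, and with slide as a fixed block the JAG2 differences turned to 0.29 and 0.16 (adjusted p = 0.363 and 0.705).

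HES1, a repressor of the basic helix-loop-helix type and a direct target of Notch, was at 13.24, 13.22, 13.26, 12.99 and 13.03 in GD100 controls and at 13.54, 13.59, 13.62 and 13.85 in GD165 controls. BPA-exposed fetuses had HES1 levels of 13.36, 13.32, 13.11, 13.11 and 13.14 at GD100 and of 13.68, 13.55 and 13.74 at GD165. The lowest GD165 level, 13.54, was above the highest GD100 level, 13.36. HES1 rose by 0.50 ± 0.092 on the log2 scale in controls (1.41-fold, adjusted p = 0.00135) and by 0.45 ± 0.10 in BPA-exposed fetuses (1.37-fold, adjusted p = 0.00555).

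HEY1, a related repressor prominent in vessels and heart, was at 13.43, 13.39, 13.59, 13.32 and 13.52 in GD100 controls and at 14.01, 14.01, 14.26 and 14.16 in GD165 controls. In BPA-exposed fetuses HEY1 was at 13.11, 13.33, 13.45, 13.50 and 13.64 at GD100 and at 13.95, 13.78 and 14.19 at GD165. Again every GD165 level lay above every GD100 level. HEY1 rose by 0.66 ± 0.11 in controls (1.58-fold, adjusted p = 0.000753) and by 0.57 ± 0.12 in BPA-exposed fetuses (1.49-fold, adjusted p = 0.00443). Within slides the HEY1 difference was 0.42 and 0.49 in controls and 0.56 in BPA-exposed fetuses, and that of HES1 was 0.33, 0.50 and 0.61.

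These 8 rises kept their direction in all 33 alternative settings, but several did not keep their place past the threshold. Some settings could not change a direction, such as leaving out an array outside the comparison or fitting only the compared groups. With slide as a fixed block, 1 of the 3 control rises (DLL1) and 1 of the 5 in BPA-exposed fetuses (DLL1 again) passed. The control count stayed at 3 when any 1 array was left out, and the BPA-exposed count fell to 2 without GD100 BPA replicate 3, GD165 BPA replicate 3 or GD165 BPA replicate 5, and to 3 without GD100 BPA replicate 4, GD100 BPA replicate 5 or GD165 BPA replicate 4.

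**Figure D2:**
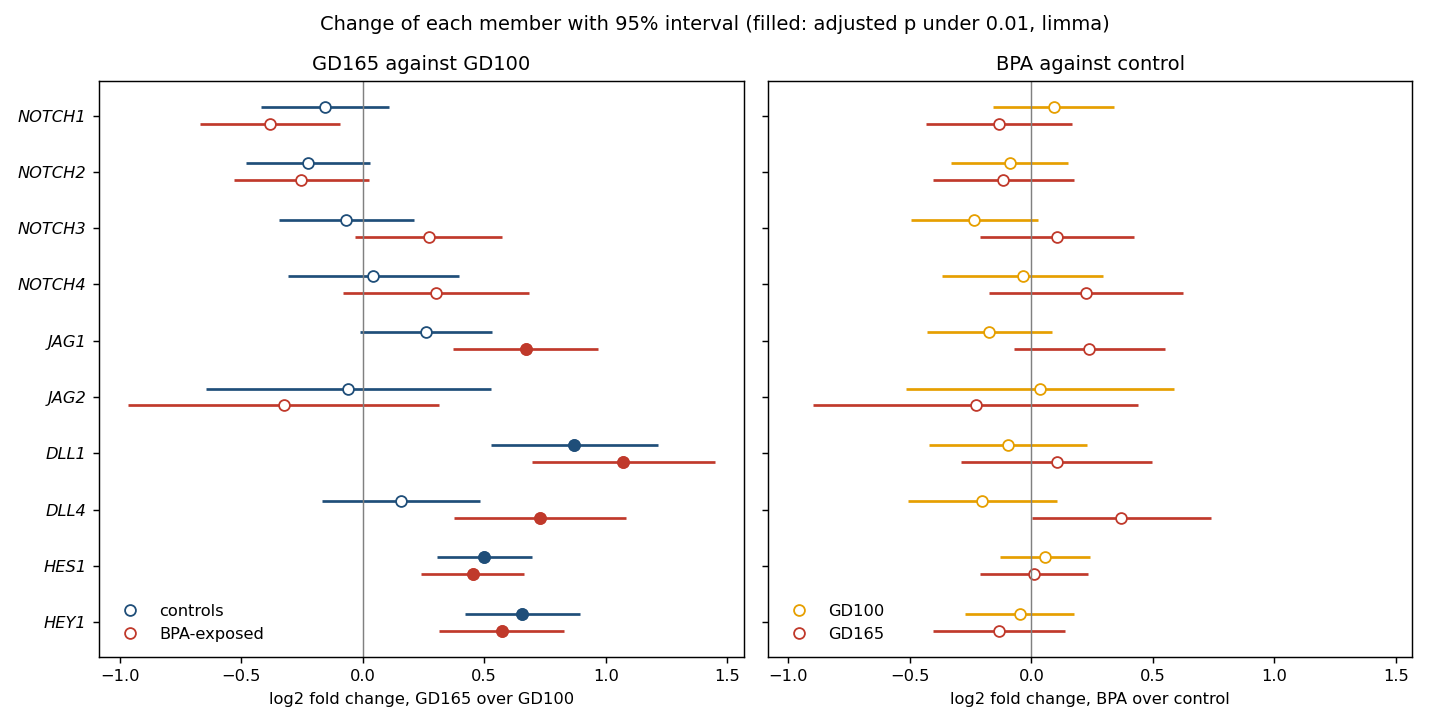
Log2 fold change of each member (points) with its 95% interval (lines) from limma over all 17 arrays, GD165 over GD100 on the left (blue controls, red BPA-exposed) and BPA over control on the right (yellow GD100, red GD165). Filled points have an adjusted p under 0.01: DLL1, HES1 and HEY1 in both age comparisons and JAG1 and DLL4 in BPA-exposed fetuses only, with no filled point on the right.

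The study asked above all what BPA exposure changes. At GD100, 0 of the 10 members passed the test, as did 0% of all probes, and the adjusted p was 0.99993 for each member. The log2 differences between 5 BPA-exposed and 5 control fetuses ran from −0.23 (NOTCH3) to 0.091 (NOTCH1), and 0 members had an unadjusted p under 0.05, against 767 of all probes. All 10 members overlapped between the groups, where 0.782% of all probes did not. The median was −0.069 over the members and 0.011 over all probes.

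At GD165 again 0 of the 10 members and 0% of all probes passed, and all 10 members overlapped, where 7.31% of all probes did not. By its own error-weighted test, not rerun here, the paper reports minimal differences at GD100 and significant ones at GD165. It also measured some of the latter by RT-PCR. DLL4 had the largest log2 difference, 0.37 ± 0.17 (1.29-fold, 95% interval 0.00055 to 0.74, unadjusted p = 0.0497, adjusted p = 0.579), and it was the 1 member with an unadjusted p under 0.05, against 1740 of all probes. JAG1 differed by 0.24 ± 0.15 (adjusted p = 0.683). HES1 differed by 0.0091 ± 0.10 and HEY1 by −0.13 ± 0.13, with intervals of −0.21 to 0.23 and −0.40 to 0.14. Over the 20 tests of BPA in these members the 95% intervals ran from −0.90 (JAG2, GD165) to 0.74 (DLL4, GD165). Differences inside a gene's own interval remained compatible with the data from these numbers of animals.

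Whether the BPA effect differed between the ages was tested as the difference of the 2 log2 effects, and 0 of the 10 members and 0% of all probes passed, with an unadjusted p under 0.05 for 2 members and 1584 probes. This is also the test of whether the age change differed between BPA-exposed and control fetuses, so the calls of JAG1 and DLL4 in the exposed animals only are not shown to be a difference. DLL4 had the largest value, 0.57 ± 0.23 (95% interval 0.092 to 1.05, unadjusted p = 0.0226, adjusted p = 0.572), made of a BPA effect of −0.20 at GD100 and 0.37 at GD165. JAG1 followed with 0.41 ± 0.19 (0.0068 to 0.81, unadjusted p = 0.0467, adjusted p = 0.631), from −0.17 and 0.24. DLL1, HES1 and HEY1 had values of 0.20, −0.048 and −0.085 with adjusted p of 0.891, 0.958 and 0.940.

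**Figure D3:**
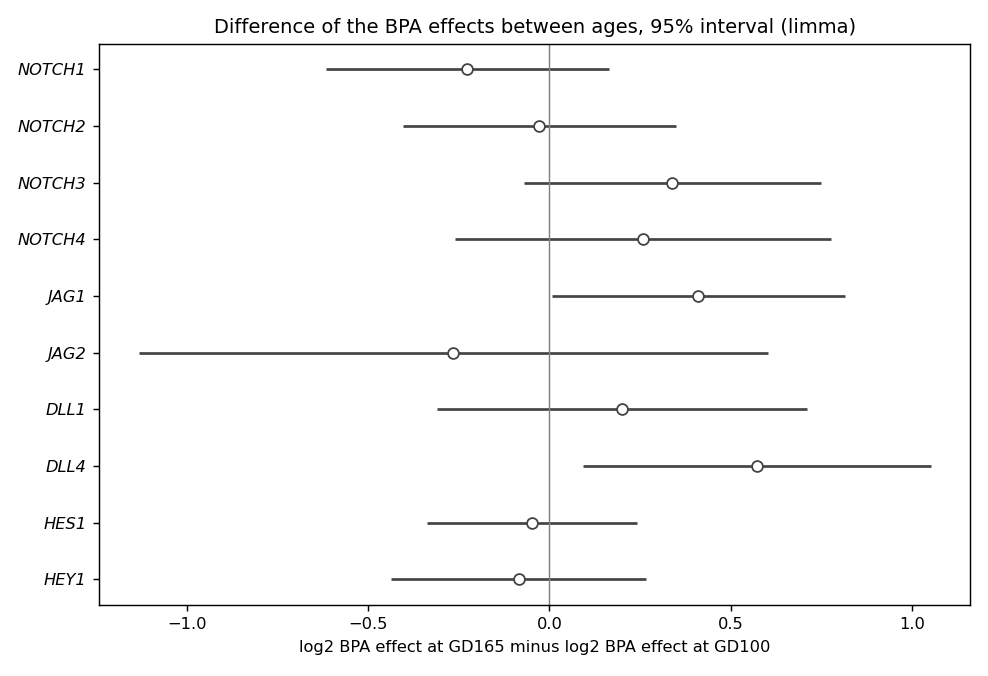
Log2 BPA effect at GD165 minus the log2 BPA effect at GD100 (horizontal axis) for each member, points with 95% intervals from limma over all 17 arrays. The intervals of JAG1 (0.0068 to 0.81) and DLL4 (0.092 to 1.05) lie above 0, and no member passed after adjustment over all probes.

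Of 67 other genes listed for the pathway by role, 51 had a named probe. In controls 4 of the 51 passed (7.84%, against 11.5% of all probes), 2 as higher and 2 as lower at GD165, and in BPA-exposed fetuses 3 passed (5.88%, against 9.68%). Their median log2 age difference was −0.0044 in controls and −0.0012 in BPA-exposed fetuses. In both comparisons of BPA with control 0 of the 51 passed limma's test, and 1 at GD100 and 3 at GD165 had an unadjusted p under 0.05.

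MFNG and PSEN2 passed in both age comparisons. MFNG, a Fringe enzyme that adds sugars to the receptors and so shapes which ligands they answer, was at 13.23 to 13.75 in GD100 controls and at 14.24 to 14.84 in GD165 controls, and at 13.22 to 13.48 and 14.06 to 14.77 in BPA-exposed fetuses. The ages did not overlap, and MFNG rose by 1.09 ± 0.16 (adjusted p = 0.000226) and 1.03 ± 0.17 (adjusted p = 0.000918) on the log2 scale. PSEN2, a catalytic subunit of the gamma-secretase that cuts the receptors, rose by 0.41 ± 0.075 (adjusted p = 0.00136) and 0.48 ± 0.082 (adjusted p = 0.00103). LFNG, a second Fringe enzyme, had differences of 0.33 ± 0.41 and 1.47 ± 0.44 and passed in neither (adjusted p = 0.630 and 0.0289).

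TLE1, a corepressor that HES proteins recruit, lay at 16.70 to 16.82 in GD100 controls and at 16.07 to 16.25 in GD165 controls. It fell by 0.60 ± 0.078 on the log2 scale (adjusted p = 9.39e-05), and in BPA-exposed fetuses its difference was −0.29 ± 0.084 (adjusted p = 0.0243). HES6, a HES family protein known to oppose HES1, fell by 1.48 ± 0.34 in controls (adjusted p = 0.00663), although GD165 replicate 5 at 14.76 overlapped GD100 replicate 1 at 14.61, and in BPA-exposed fetuses it differed by −1.28 ± 0.38 (adjusted p = 0.0256). DLL3, a ligand known to act inside the signaling cell as an inhibitor, fell by 1.40 ± 0.26 in BPA-exposed fetuses (adjusted p = 0.00176) and differed by −0.85 ± 0.24 in controls (adjusted p = 0.0185). A second probe of DLL3 with the same sequence gave differences of −1.37 and −0.90.

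The nuclear partner RBPJ differed by −0.0081 ± 0.16 in controls and 0.082 ± 0.17 in BPA-exposed fetuses (adjusted p = 0.980 and 0.780). None (0) of the 9 genes of the nuclear complex and none (0) of the 12 for trafficking and turnover passed limma's test in either age comparison. An unadjusted p under 0.05 was found for 2 and 5 of them in controls, against 6687 of all 20217 probes. In BPA-exposed fetuses it was found for 2 and 2 of them, against 6980 probes. Among the 5 other HES and HEY family genes with a probe, HEY2 differed by 0.15 ± 0.17 in controls and 0.71 ± 0.19 in BPA-exposed fetuses (adjusted p = 0.592 and 0.0141). HES5 differed by −0.69 ± 0.23 and −0.49 ± 0.25 (adjusted p = 0.0443 and 0.182). Of the HES and HEY family genes that passed in controls, HES1 and HEY1 were higher and HES6 was lower at GD165.

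**Figure D4:**
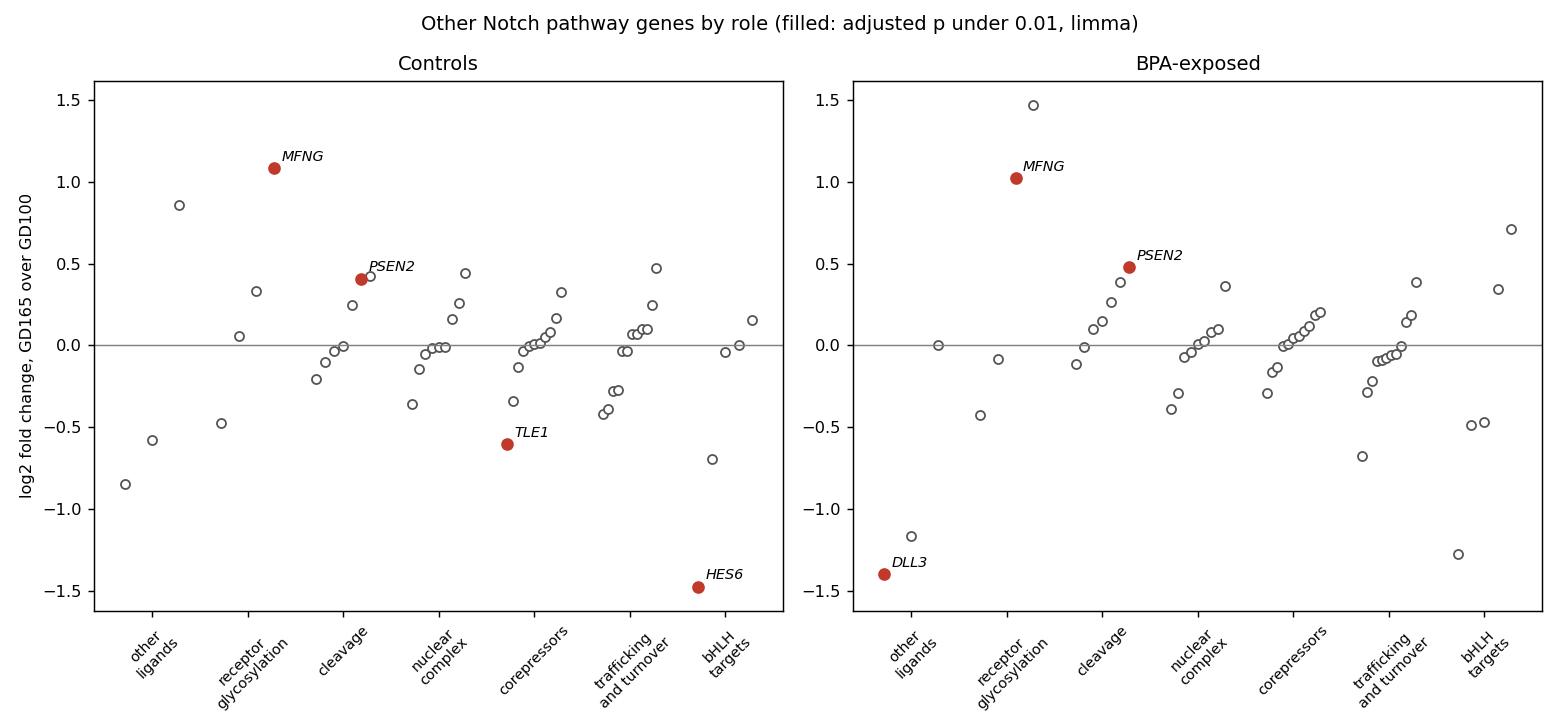
Log2 fold change of GD165 over GD100 (vertical axes) for 51 other Notch pathway genes grouped by role (horizontal axes) in controls (left) and BPA-exposed fetuses (right), 1 point per gene. Filled, named points have an adjusted p under 0.01: MFNG and PSEN2 are higher in both panels, TLE1 and HES6 lower in controls and DLL3 lower in BPA-exposed fetuses.

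Marker genes of several cell types also moved with age, and their part in the member differences was not tested. In bulk RNA, more or fewer cells of a type and more or less RNA per cell cannot be told apart. All 18 endothelial markers with a probe were well above background on every array. Of these, 17 of 18 were higher at GD165 in each comparison, 4 past the test in each. Of all probes, 6.32% passed as higher in controls and 4.82% in BPA-exposed fetuses. The summed endothelial signal was 215098 to 278065 in GD100 controls, 240638 to 254402 in GD100 BPA-exposed fetuses, 296244 to 442394 in GD165 controls and 310053 to 414331 in GD165 BPA-exposed fetuses. The median log2 age difference of the endothelial markers was 0.43 in controls and 0.52 in BPA-exposed fetuses. VWF, the von Willebrand factor, had the highest of the 18, 1.30 and 1.37.

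Mural and smooth muscle markers (12 genes, all above background on every array) were higher at GD165 for 11 and 10 genes. Of these, 4 and 2 passed the test as higher, against 6.32% and 4.82% of all probes. Their median log2 age difference was 0.33 in controls and 0.27 in BPA-exposed fetuses, and the lowest was −0.21 and −0.49. RGS5, a pericyte marker, had the highest, 1.79 and 2.14. The summed signal of the 12 genes was 1718850 to 2365820 and 1813050 to 2204410 in GD100 control and BPA-exposed fetuses and 2152150 to 2868880 and 2031880 to 2702930 at GD165. Epithelial markers had 6 and 4 of 10 genes past the test as higher, against the same shares of all probes. Their sums were 126895 to 195518 and 118780 to 171260 at GD100 and 241346 to 309984 and 186544 to 244361 at GD165. None (0) of 11 leukocyte markers passed. An unadjusted p under 0.05 was found for 4 of them in each comparison, against 6687 and 6980 of all 20217 probes. The leukocyte sums were 14274 to 25665 and 17500 to 26448 at GD100 and 20850 to 31520 and 21459 to 40928 at GD165. Cell cycle genes went the other way, with 10 of 10 past the test as lower in controls and 9 of 10 in BPA-exposed fetuses. Over all probes, 5.2% and 4.86% passed as lower.

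Skeletal muscle genes also moved with age: 10 of 10 were higher at GD165 in each comparison. In controls 4 passed the test, where 6.32% of all probes passed as higher, and in BPA-exposed fetuses 1 passed, against 4.82%. The median log2 difference of the skeletal muscle genes was 4.32 and 2.39. Of these genes 8 were well above background on every array, and their summed signal was 8775 to 11189 in GD100 controls, 9174 to 15868 in GD100 BPA-exposed fetuses, 16685 to 161906 in GD165 controls and 14594 to 79561 in GD165 BPA-exposed fetuses. They stood out most on 2 GD165 arrays, with a mean log2 deviation of 4.50 for control replicate 5 and 3.95 for BPA replicate 5, and squamous epithelium genes on control replicate 6, with 3.29. Without these 3 arrays together, a choice made after the data were seen, the number of members past the test was 1 in each age comparison, DLL1 in both (log2 0.88, adjusted p = 0.00278, and 1.05, adjusted p = 0.000925). HES1 then differed by 0.41 in each (adjusted p = 0.0268 and 0.0242), and HEY1 by 0.56 and 0.46 (adjusted p = 0.0147 and 0.0296).

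Likeness of pattern was measured as Pearson's r over the 17 arrays against 14161 genes well above background on every array. These values are a description, and the arrays share the split by age and the slides. DLL1 was most like STAT6 (0.972), FGL2 (0.968) and SWAP70 (0.966), and HES1 most like FCGR3B (0.962), SAMHD1 (0.948) and FCGR3 (0.942). HEY1 was most like TNFSF12-TNFSF13 (0.955), TNFSF13 (0.953) and HOXB6 (0.937). For JAG1 the nearest genes were NR3C1 (0.937), ESAM (0.913) and KCNA5 (0.912), and for DLL4 they were CPNE8 (0.843), MPP5 (0.841) and NIN (0.834).

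Among the receptors, NOTCH1 was nearest to RGMA (0.927), FOXD2 (0.880) and TRPC5 (0.874), and NOTCH2 to BCORL1 (0.841), ARID3A (0.839) and FBN1 (0.831). NOTCH3 was nearest to HMGCLL1 (0.774), C10orf104 (0.762) and TICAM1 (0.749), and NOTCH4 to RAB24 (0.867), DALRD3 (0.797) and FUNDC2 (0.788). For the ligand JAG2 the nearest genes were LYPDC2 (0.969), RHPN1 (0.964) and ENTPD8 (0.954). Between members, DLL1 and HES1 had an r of 0.88 over the arrays and 0.37 once each group's mean was removed. DLL4 and HES1 had 0.78, and 0.83 once the means were removed, while HES1 and HEY1 had 0.81 and −0.00095. JAG2 and NOTCH1, both low on slide 5, had 0.65 and 0.66.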

How the data were processed

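RNA from 17 fetal uteri was labeled with Cy3 and hybridized to single-color Agilent rhesus arrays. Per the labels, the authors used Agilent Feature Extraction 9.5. The deposited values are linear spot intensities after background subtraction, not scaled between arrays, and the deposited value table was identical to the scanner intensities in 711467 of 711467 values. Spots marked as outliers were left out, log2 values of the 2 spots per probe were averaged and each array was scaled to its 75th percentile. limma 3.58.1 in R 4.3.3 was fitted to all arrays in 4 groups, without the error weighting of the study's own test, and was checked on simulated data. All tests were two-sided with adjustment over 20217 probes, and replicates are separate animals.

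Genes named are the 10 members, other pathway genes past the threshold, RBPJ and the 3 nearest genes per member. LFNG, HEY2, HES5 and the marker genes were named after their values were seen. Of the probes, 18278 had a name, and 9 older symbols were equated with current ones; where a gene has several probes, the brightest was used. Members and lists were chosen with earlier results of these data known. The alternatives concerned background, scaling, filter, spots, variance model, slide, replicate number, probe choice, threshold and each animal left out. The arrays of slide 5, and those with high muscle or squamous scores, were left out as alternatives added after the data were seen.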

Additional observations from a re-analysis of the deposited data

Results flagged for a closer look

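NOTCH3 on GD165 control replicate 1 was at 14.46, with a gap to the nearest of the other 3 arrays of 0.855 of the group's range. JAG2 on GD100 control replicate 5 was at 14.07, with a gap of 0.777 of the range. Each is a sample far from the others of its group, and 2 of 30 groups tested for this stood out, where chance gives about 1 in 20. Both arrays lay on slide 5, and the part of the slide was not tested.

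For NOTCH1, every BPA-exposed fetus was above the control mean at GD100 (6.26) and below it at GD165 (6.10). The share of all probes with this pattern is not given here. GD165 BPA replicates 3 and 4 lay on slide 5, where NOTCH1 was between 5.88 and 5.96 on 4 arrays. The part of the slide was not tested. The difference of the 2 BPA effects was −0.23 on the log2 scale and did not pass limma's test (adjusted p = 0.807).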

How the results depend on the processing

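The number of members past the threshold stayed at 3 for age in controls and at 5 for age in BPA-exposed fetuses under the other background correction, scalings, filter, spot rule, variance models, probe rule and threshold and with slide as a random block. Each member had 1 named probe, so the probe rule could not change its value. The other threshold, 0.05, was looser and could not remove a call. The number was 1 and 1 with slide as a fixed block and without the 3 arrays of high muscle or squamous scores (DLL1 each time). With only the compared groups fitted it was 1 and 1 (HEY1 in controls, DLL1 in BPA-exposed fetuses). Without the arrays of slide 5 it was 1 in controls (HEY1). Over the 16 settings other than leaving 1 array out, the control rise passed in 13 for DLL1, 14 for HEY1 and 11 for HES1. Leaving out 1 array at a time gave 3 to 3 and 2 to 5. Without slide 5, GD165 BPA had 1 array, assumed to vary like the other groups, so the age count in BPA-exposed fetuses is not given. The comparisons of BPA with control and the difference of the BPA effects had 0 members past the threshold in every setting; fitting only the compared groups does not apply to that difference. The cause of the lost calls was not tested.

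With the replicate block the counts were 1 in controls (HEY1; DLL1 0.66, adjusted p = 0.0236; HES1 0.42, adjusted p = 0.0154) and 3 in BPA-exposed fetuses. Same-numbered samples had correlations of deviations from −0.167 to 0.115, and the best partner carried the sample's own number in 3 of 26 cases, so the numbers were not taken as pairs.

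Over all probes the count for age in controls was 2328, and 4279 at an adjusted p of 0.05, 1531 without scaling, 1233 with slide fixed, 958 with the replicate block, 1172 with only the compared groups, and 1512 without GD165 control replicate 6. In BPA-exposed fetuses it was 1956, and 4255, 512 with slide fixed, 1444 with the replicate block, 1176 with only the compared groups, and 994 and 1181 without GD165 BPA replicate 4 or 5. With 3 to 5 animals per group, small differences were not detectable.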
